A study of Homo sapiens with 6 samples.

Results

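The genes of clot formation and clot lysis described here are 9 of the 20030 genes listed in the table of the renal cancer cell line 786-O. They are the fibrinogen chains FGA, FGB and FGG, tissue factor (F3), the inhibitors TFPI and TFPI2, and the urokinase system with its sister activator, PLAU, PLAUR and PLAT. The genes were taken by symbol, and this group was selected with the differences between shYB1 and vector libraries already measured, so those differences are given as a description and support no test.

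786-O is an established human cell line of clear cell renal carcinoma origin. Both groups were cells stably transduced with lentivirus and selected in puromycin, at passages 16 to 18. The 3 vector libraries carried a scrambled (nonsense) shRNA, and the 3 shYB1 libraries carried an shRNA, a small hairpin RNA that lowers the mRNA it matches, against YB1. The text of the series speaks of 3 independent shRNAs to YB1, but labels and methods know only the group shYB1, used here as 3 replicates. Whether each shYB1 library carried a different shRNA is not stated. If so, shRNA and replicate are the same thing, and the spread of these libraries includes differences between shRNAs. No source says that the replicates were separate transductions, so errors measure only the spread between these libraries, which may be technical. Values are FPKM, fragments per kilobase of transcript scaled to the mapped fragments of the library, a level per length that can be compared between genes.

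Fibrinogen is a soluble protein built from 3 kinds of chain that thrombin turns into fibrin, and the liver is its main source, where IL-6 raises it in the acute phase response. Tissue factor on cell surfaces starts the coagulation cascade that forms thrombin, and TFPI restrains that start. Urokinase and tissue plasminogen activator turn plasminogen into plasmin, which dissolves fibrin and also cleaves matrix, and many carcinomas make urokinase and its receptor.

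FGB, FGA and FGG lie side by side on the long arm of chromosome 4. In GENCODE 29 (GRCh38) FGB spans chr4:154562956-154571086 on the plus strand, FGA chr4:154583126-154590766 on the minus strand and FGG chr4:154604134-154612967 on the minus strand. The cluster covers 50.01 kb and holds 0 other protein-coding genes. Sequence upstream of the starts is shown for the 3 chains, which fell together, and for F3 and TFPI2, which moved in opposite directions. The sequences are from the RefSeq promoter table (GRCh38.p14), which matched 8 of the 9 genes, and are written 5′ to 3′ on the strand of the gene. Positions count back from 1 at the base before the start. Capitals mark CCAAT or its complement ATTGG in the fibrinogen chains, the letters of the Y-box that the YB1 family was first described to bind, and TGANTCA, the AP-1 site, in F3 and TFPI2. Stretches that GENCODE places in an exon of the gene were kept to 30 bases, so FGG and TFPI2 are shown only around the marked letters.
FGA, chr4:154590743-154590992, minus strand: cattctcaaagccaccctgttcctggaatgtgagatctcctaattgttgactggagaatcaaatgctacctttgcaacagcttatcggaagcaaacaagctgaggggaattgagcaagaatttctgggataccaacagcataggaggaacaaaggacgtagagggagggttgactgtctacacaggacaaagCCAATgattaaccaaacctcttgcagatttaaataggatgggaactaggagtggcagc
FGB, chr4:154562761-154562985, plus strand: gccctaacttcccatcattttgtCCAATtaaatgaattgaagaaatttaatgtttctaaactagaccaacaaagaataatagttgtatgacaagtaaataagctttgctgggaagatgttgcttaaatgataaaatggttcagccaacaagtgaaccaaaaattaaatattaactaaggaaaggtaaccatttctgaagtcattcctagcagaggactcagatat
FGG, chr4:154612657-154612686, minus strand: acataaagggacaATTGGagcctgagaggt
F3, chr1:94541771-94542009, minus strand: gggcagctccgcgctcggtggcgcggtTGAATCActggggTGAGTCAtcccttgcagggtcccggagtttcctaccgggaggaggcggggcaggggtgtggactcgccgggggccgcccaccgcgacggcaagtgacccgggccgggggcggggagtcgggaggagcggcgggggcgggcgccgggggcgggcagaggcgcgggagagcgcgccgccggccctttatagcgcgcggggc
TFPI2, chr7:93890823-93890852, minus strand: agtccccgtgcaTGAATCAgccacccctca

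Motifs were searched on both strands in the 250 bases before the start. FGB and PLAU have 2 listed starts each, and the one used here has the most GENCODE transcript starts within 25 bases. CCAAT stood in the windows of FGA, FGB and FGG, beginning 58, 227 and 17 bases before the start, and in none of the other 5 windows of the group. It was found in 32.0% of all 35116 windows. CTGGGA, the core of the IL-6 response element, stood in the windows of FGA, FGB, FGG and PLAUR, and in 28.7% of all windows. TTNNGNAA, a C/EBP pattern, was found in 6 of the 8 windows, those of all 3 chains among them, and in 33.2% of all windows. TGANTCA began 223 and 210 bases before the start of F3, 87 before TFPI2 and 186 before PLAUR, and was found in 6.57% of all windows. GGGCGG, the SP1 box, stood in F3, TFPI2 and PLAU, and in 42.6% of all windows. TATAAA, the TATA box pattern, was matched in F3 on the opposite strand (as TTTATA), 28 bases before the start, and in 10.7% of all windows. No match overlapped a match of another motif. Base composition differed widely, with 32% G and C in the FGB window, 45.2% in FGA, 50.8% in FGG, 64.4% in TFPI2 and 78% in F3. GENCODE places all 250 bases of the FGG window and 238 bases of the TFPI2 window in exons of these genes. The matches in these 2 windows may thus lie in transcribed sequence. All matches are of letters and are not measured sites.

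To check the labels, the targeted gene was read before the others. YBX1, the gene of YB1, stood at 366.5, 372.8 and 377.9 FPKM in vector cells against 166.7, 165.9 and 173.3 FPKM in shYB1 cells, a log2 difference of −1.14 (standard error 0.031). The exact two-sided permutation test gave p = 0.1, and no smaller p can be reached with 3 libraries in each group. Of 12 markers of renal epithelium and clear cell carcinoma, 10 had a mean of at least 1 FPKM (PAX8, PAX2, CA9 and VIM among them) and LRP2 was listed at 0, and their summed level, most of it VIM, was 1913 to 2005 FPKM in vector cells and 1963 to 1997 in shYB1 cells. Within this sum the kidney cadherins were lower in shYB1 cells, CDH6 at 47.9 ± 0.44 against 33.0 ± 0.30 FPKM (SD, n = 3 each, log2 difference −0.54, limma adjusted p = 3.92e-06) and CDH16 at 8.38 ± 0.20 against 6.62 ± 0.20 FPKM (SD, n = 3 each, log2 difference −0.34, limma adjusted p = 0.00128). Among the 10439 genes whose mean reached 1 FPKM, limma called 25.7% different at an adjusted p under 0.05 (Benjamini-Hochberg), 6.93% lower and 18.7% higher in shYB1 cells. These shares depend on scaling, and with median-of-ratios size factors they were 23.4% in all, 12% lower and 11.4% higher. The median log2 difference of all genes tested was 0.055 as deposited.

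The fibrinogen chains fell by the largest amounts among the 9 genes. FGG, the γ chain, carries some of the sites by which factor XIIIa cross-links fibrin. It stood at 4.84, 4.50 and 4.92 FPKM in vector cells against 1.66, 1.84 and 1.64 FPKM in shYB1 cells. Values of single libraries follow the order of replicates 1, 2 and 3. FGB, the Bβ chain, stood at 1.53, 2.12 and 1.74 FPKM in vector cells against 0.842, 0.705 and 0.690 FPKM in shYB1 cells. FGA, the Aα chain, from which thrombin first cuts a fibrinopeptide, stood at 0.612, 0.566 and 0.763 FPKM in vector cells against 0.275, 0.233 and 0.258 FPKM in shYB1 cells. In all 3 genes every shYB1 library lay below every vector library, while the groups failed to overlap in 42.6% of all genes tested. In bulk RNA, fewer cells that express a gene and less RNA per cell cannot be told apart.

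The mean of FGG was 4.76 ± 0.23 FPKM in vector cells and 1.71 ± 0.11 in shYB1 cells (SD, n = 3 each), 2.78-fold lower. On the log2(FPKM + 0.1) scale, which understates changes of low genes, this was −1.42 (standard error 0.077, 95% interval −1.59 to −1.25), the difference at rank 4 from the lowest of the 10439 genes. For FGB the means were 1.79 ± 0.30 and 0.746 ± 0.084 FPKM (SD, n = 3 each), 2.41-fold lower, and the log2 difference was −1.16 (standard error 0.13, 95% interval −1.45 to −0.86), at rank 9. FGA, with a mean of 0.451 FPKM over all libraries, was under the limit of 1 FPKM, and its value comes from the fit without a filter. Its means were 0.647 ± 0.10 and 0.256 ± 0.021 FPKM (SD, n = 3 each), 2.53-fold lower, and its log2 difference was −1.06 (standard error 0.14, 95% interval −1.40 to −0.73). With a pseudocount of 1 in place of 0.1, the log2 differences of FGG and FGB were −1.09 and −0.67, since their levels are near the pseudocount.

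**Figure D1:**
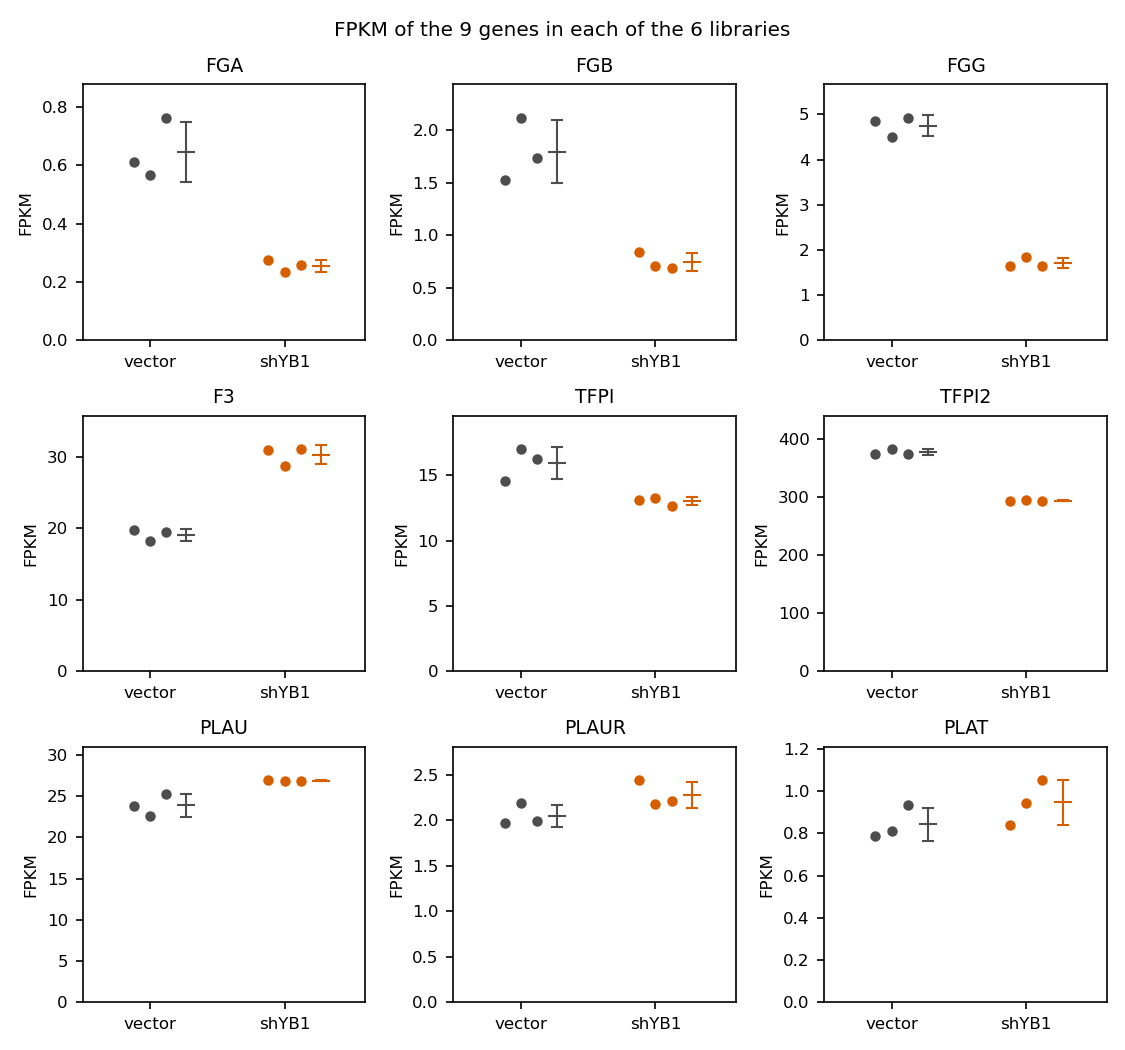
FPKM (vertical axes, each from 0) of the 9 genes in the 3 vector libraries (grey points) and the 3 shYB1 libraries (orange points), with the mean and SD to the right of each group. FGG sits between 4.50 and 4.92 in vector cells and between 1.64 and 1.84 in shYB1 cells, F3 moves the other way, and PLAUR and PLAT overlap between the groups.

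While all 3 chains fell, their proportions overlapped between the groups. The ratio of FGG to FGB stood at 3.17, 2.13 and 2.83 in vector cells against 1.97, 2.61 and 2.38 in shYB1 cells. The ratio of FGA to FGB stood at 0.400, 0.268 and 0.439 in vector cells against 0.327, 0.331 and 0.374 in shYB1 cells. The ratio of FGA to FGG overlapped as well, at 0.136 ± 0.017 and 0.150 ± 0.021 (SD, n = 3 each). The ratios spread widely in vector cells, and equal proportions are not shown by this overlap. In every library the order was FGG, FGB, FGA.

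The neighbours of the cluster were chosen by position. PLRG1, a splicing factor gene 12.52 kb from the cluster on the FGB side, stood at 8.42, 7.45 and 8.48 FPKM in vector cells against 8.90, 9.26 and 8.52 FPKM in shYB1 cells, a log2 difference of 0.13 (standard error 0.063), 95% interval −0.0065 to 0.27, with an adjusted p of 0.145 from limma. LRAT, an enzyme of vitamin A storage 13.98 kb away on the FGG side, was at most 0.128 FPKM in every library. In PLRG1 every shYB1 library lay above every vector library, but the gap was narrow, from 8.48 to 8.52 FPKM. The groups did not overlap in 42.6% of all genes tested. With median-of-ratios size factors the difference of PLRG1 was 0.08 (limma adjusted p = 0.404). LRAT was too low to be read.

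Hepatocytes, the textbook source of fibrinogen, were checked by 12 markers. Only AMBP reached a mean of 1 FPKM, TTR and FGL1 were listed at 0, and the summed level of the 12 was 1.78 to 2.43 FPKM in vector cells and 1.71 to 2.06 in shYB1 cells. Of 5 platelet and megakaryocyte markers, 0 reached 1 FPKM and PF4, PPBP, GP1BA and GP9 were listed at 0, with sums of 0.179 to 0.228 and 0.0943 to 0.185 FPKM. Of 6 endothelial markers 0 reached 1 FPKM, CDH5 was listed at 0, and the sums were 0.577 to 0.633 FPKM in vector cells and 0.501 to 0.613 in shYB1 cells. Of 6 leukocyte markers CD68, LYZ and CSF1R reached 1 FPKM, CD3E was listed at 0, and the sums were 27.6 to 29.9 and 25.3 to 27.1 FPKM. Of 6 fibroblast markers LUM alone reached 1 FPKM, COL1A2 was listed at 0, and the sums were 2.27 to 2.47 in vector cells and 2.61 to 2.71 in shYB1 cells. The leukocyte sum was lower in shYB1 cells without overlap and is mostly CD68, at 25.1 ± 0.34 against 22.4 ± 0.30 FPKM (log2 difference −0.16, limma adjusted p = 0.00969), whereas CSF1R of the same list was higher, at 1.75 ± 0.23 against 2.64 ± 0.10 FPKM (log2 difference 0.57, limma adjusted p = 0.00251). The fibroblast sum was higher without overlap and is mostly LUM, which was not called (log2 difference 0.16, limma adjusted p = 0.194). The part of these markers in the results was not tested.

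The genes most like FGG over the 6 libraries were MMP7, CFI, AQP9, SOD2 and IFITM1, by the root mean square difference of log2 levels after each gene was centred on its own mean. That difference was 0.0736 for MMP7, a matrix protease, 0.112 for CFI, the protease that inactivates complement C3b, 0.148 for the aquaporin AQP9, 0.156 for the mitochondrial superoxide dismutase SOD2 and 0.156 for IFITM1, an interferon-induced membrane protein. The other chains were farther from FGG than these 5, at 0.220 for FGA and 0.237 for FGB. The 5 were picked as the closest of the 10439 genes tested. FGA and FGB are low, where the added 0.1 understates changes, and the part of this in their distance was not tested. All of these genes were read in the same libraries, and the measure includes the difference between the groups.

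Tissue factor rose, whereas TFPI and TFPI2 fell. F3 (chr1:94529225-94541800, minus strand), the membrane receptor of factor VIIa that starts coagulation, stood at 19.7, 18.2 and 19.5 FPKM in vector cells against 31.0, 28.8 and 31.1 FPKM in shYB1 cells. Every shYB1 library lay above every vector library, while the groups failed to overlap in 42.6% of all genes tested. The means were 19.1 ± 0.84 and 30.3 ± 1.32 FPKM (SD, n = 3 each), 1.58-fold higher, with a log2 difference of 0.66 (standard error 0.048, 95% interval 0.55 to 0.77). This was rank 40 from the highest of the genes tested.

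TFPI (chr2:187464230-187565760, minus strand), a Kunitz inhibitor of factor Xa and of the complex of tissue factor and factor VIIa, stood at 14.6, 17.0 and 16.2 FPKM in vector cells against 13.1, 13.2 and 12.6 FPKM in shYB1 cells. The groups did not overlap, as in 42.6% of all genes tested, and the gap between them was narrower than the spread of the vector libraries. The exons of TFPI share 118 bases with AC007319.1 on the other strand. The means were 15.9 ± 1.25 and 13.01 ± 0.33 FPKM (SD, n = 3 each), 1.22-fold lower, and the log2 difference was −0.29 (standard error 0.058, 95% interval −0.42 to −0.16).

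TFPI2 (chr7:93885396-93890991, minus strand), a related Kunitz inhibitor that acts on plasmin and trypsin and is found in the extracellular matrix, was by far the most abundant of the 9 genes, at rank 109 of all 20030 listed genes in vector cells. It stood at 375, 384 and 375 FPKM in vector cells against 294, 296 and 293 FPKM in shYB1 cells. The means were 378 ± 5.05 and 295 ± 1.38 FPKM (SD, n = 3 each), 1.28-fold lower, with a log2 difference of −0.36 (standard error 0.028, 95% interval −0.42 to −0.30), and the groups lay far apart relative to their spread. The exons of TFPI2 overlap those of 2 genes on the other strand, by at most 79 bases for either gene. Whether the libraries kept strand is not given in the sources used here.

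Within each library, the level of F3 relative to TFPI and TFPI2 shifted. The ratio of F3 to TFPI stood at 1.35, 1.07 and 1.20 in vector cells against 2.36, 2.17 and 2.46 in shYB1 cells, 1.21 ± 0.14 against 2.33 ± 0.15 (SD, n = 3 each). The ratio of TFPI2 to F3 stood at 19.0, 21.1 and 19.3 in vector cells against 9.50, 10.3 and 9.44 in shYB1 cells. Neither of these ratios overlapped between the groups. This follows from the levels above, since F3 was higher and TFPI and TFPI2 lower, each without overlap, so it is no separate result. A ratio within a library does not depend on a scaling factor applied to it. The ratio of TFPI2 to TFPI was 23.8 ± 1.69 in vector cells and 22.7 ± 0.49 in shYB1 cells (SD, n = 3 each) and overlapped.

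**Figure D2:**
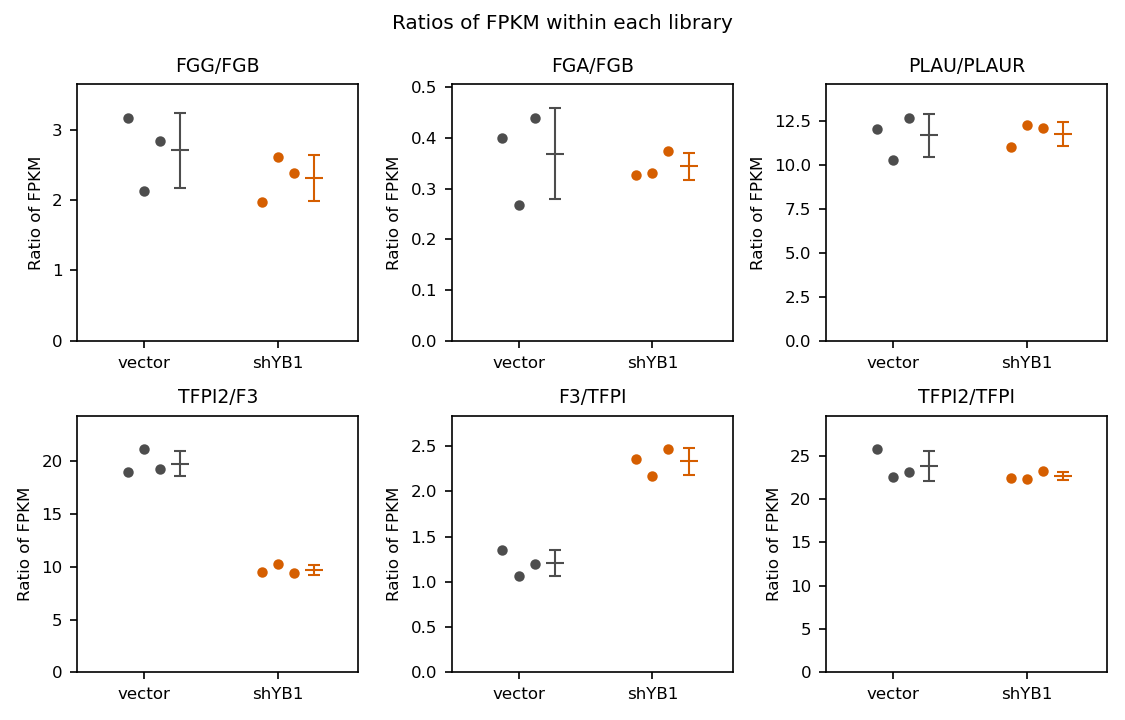
Ratios of FPKM within each library (vertical axes, from 0) for 6 pairs of genes, with vector libraries in grey, shYB1 libraries in orange, and the mean and SD beside each group. FGG/FGB, FGA/FGB and PLAU/PLAUR overlap between the groups, as does TFPI2/TFPI, whereas TFPI2/F3 and F3/TFPI do not.

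The plasminogen activators differed little. PLAU (chr10:73909177-73917497, plus strand), urokinase, stood at 23.8, 22.6 and 25.3 FPKM in vector cells against 26.97, 26.85 and 26.8 FPKM in shYB1 cells, 23.9 ± 1.34 against 26.9 ± 0.088 (SD, n = 3 each). The groups did not overlap, as in 42.6% of all genes tested. The log2 difference was 0.17 (standard error 0.045, 95% interval 0.071 to 0.27), 0.12 with median-of-ratios size factors. The call of PLAU was lost in 7 of 15 alternatives, namely median-of-ratios and quantile scaling, the variance prior without trend, and the fits without vector replicate 1 or 2 (log2 difference 0.17 and 0.13) or without shYB1 replicate 1 or 2 (0.17 and 0.17). PLAU shares 916 exon bases with C10orf55 on the other strand, so reads of that gene could be counted with it.

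PLAUR (chr19:43646095-43670547, minus strand), the receptor that holds urokinase at the cell surface, stood at 1.97, 2.19 and 1.99 FPKM in vector cells against 2.44, 2.18 and 2.22 FPKM in shYB1 cells. The groups overlapped, and the log2 difference of 0.15 had a standard error of 0.084 and a 95% interval of −0.039 to 0.34. PLAT, tissue plasminogen activator, stood at 0.785, 0.811 and 0.933 FPKM in vector cells against 0.842, 0.944 and 1.05 FPKM in shYB1 cells. Its groups overlapped as well, and in the fit without a filter its log2 difference was 0.15 (standard error 0.12, 95% interval −0.13 to 0.42). PLAT lay just under the limit on low values, with a mean of 0.895 FPKM, and FGB just above it, with 1.27 FPKM. The ratio of PLAU to PLAUR was 11.7 ± 1.23 in vector cells and 11.8 ± 0.68 in shYB1 cells (SD, n = 3 each), and that of PLAU to PLAT 28.4 ± 1.65 and 28.7 ± 3.30.

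**Figure D3:**
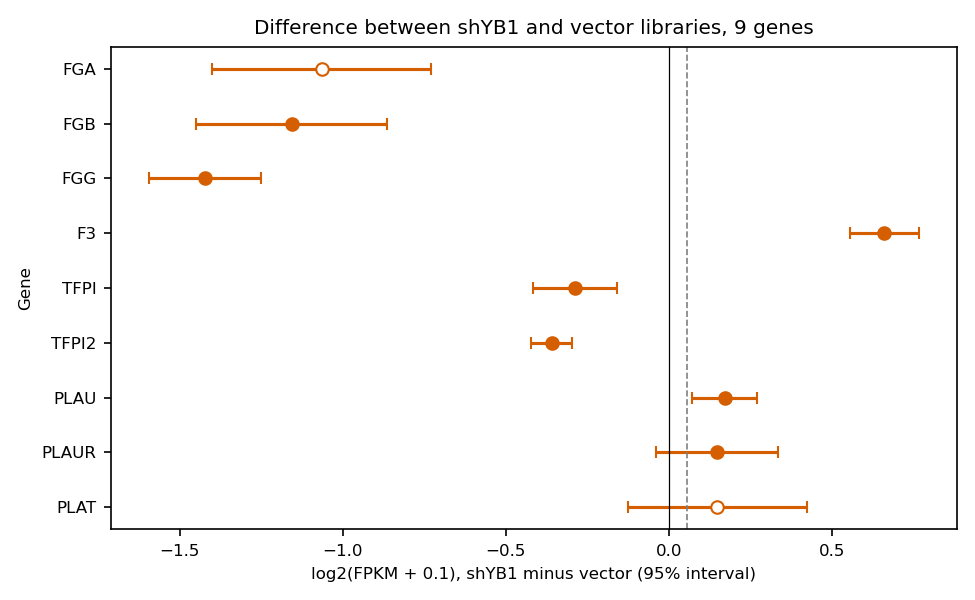
Difference in log2(FPKM + 0.1), shYB1 minus vector (horizontal axis), of the 9 genes with 95% intervals. Filled points are from the fit of genes that reached a mean of 1 FPKM, open points (FGA and PLAT) from the fit without a filter, and the dashed line is the median of all genes tested, 0.055. The fibrinogen chains lie between −1.42 and −1.06, and the intervals of PLAUR and PLAT span 0.

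Of the 9 genes, 7 passed the limit on low values, of which 4 were called lower (FGB, FGG, TFPI and TFPI2) and 2 higher (F3 and PLAU). The group was selected on these differences, so the counts are not read against the background of 6.93% lower and 18.7% higher. With median-of-ratios size factors 4 were lower and 1 higher, against 12% and 11.4% of all genes. The groups did not overlap in 6 of these 7 genes, and in 42.6% of all genes tested. The median log2 difference of the 7 was −0.29, or −0.34 with median-of-ratios size factors.

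The order of levels also changed. In vector cells TFPI2 came first, followed by PLAU, F3, TFPI, FGG, PLAUR, FGB, PLAT and FGA, and only the neighbours PLAUR and FGB overlapped in their libraries. In shYB1 cells the order was TFPI2, F3, PLAU, TFPI, PLAUR, FGG, PLAT, FGB and FGA, and PLAT and FGB overlapped. F3 was thus below PLAU in every vector library and above it in every shYB1 library, and FGG was above PLAUR in every vector library and below it in every shYB1 library.

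The other genes of the system were read from 9 lists of 112 genes, of which 61 reached a mean of 1 FPKM and 18 were listed at 0 in all libraries. Of the 61, 17 were called lower and 12 higher in shYB1 cells by limma, and 23 and 9 with median-of-ratios size factors. Over all genes tested the shares were 6.93% lower and 18.7% higher, and 12% and 11.4% with median-of-ratios size factors, so the number of higher genes in the lists was near the background as deposited. The median log2 difference of the 61 was −0.026, against 0.055 over all genes tested.

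Most genes of the soluble cascade were low. Of 17 coagulation factors and genes of their maturation only 5 were tested, and F7, F9, F11 and F13A1 were listed at 0. Among the 5, VKORC1, the enzyme that recycles vitamin K, was called higher (75.4 ± 3.96 against 82.1 ± 0.44 FPKM, SD, n = 3 each, log2 difference 0.12, limma adjusted p = 0.044). The call was lost in 8 of 15 alternatives, among them the fits without vector replicate 2 (log2 difference 0.08) and without any 1 shYB1 replicate, with limma adjusted p-values of 0.0276 to 0.242 over all 15, and the median of the list was 0.051. Of 9 coagulation inhibitors and genes of the protein C pathway 2 were tested and 0 were called, namely PROS1 (0.09, adjusted p = 0.244 from limma) and PROCR (−0.10, adjusted p = 0.137 from limma), with 0 of them under an unadjusted p of 0.05. PROCR, the protein C receptor, was called lower with median-of-ratios size factors.

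Of 4 receptors listed together as thrombin-responsive only F2RL1 and F2R were tested, and both were called higher, as were 18.7% of all genes tested. The label of this list is loose, since F2RL1 is named as a trypsin receptor. Only F2R of these tested genes is named as a thrombin receptor. F2RL1, the receptor PAR2 that the complex of tissue factor and factor VIIa can cleave, had 13.8 ± 0.53 FPKM in vector cells and 18.0 ± 0.51 in shYB1 cells (SD, n = 3 each, log2 difference 0.38, limma adjusted p = 0.000308). F2R, the thrombin receptor PAR1, had 5.65 ± 0.74 and 7.15 ± 0.31 FPKM (SD, n = 3 each, log2 difference 0.34, limma adjusted p = 0.0198), and its call was lost with no filter (adjusted p = 0.0566 from limma) and without shYB1 replicate 2 (0.31, adjusted p = 0.0697 from limma), over a range of 0.00741 to 0.0697.

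Among plasminogen, its receptors and cofactors, 6 of 8 genes were tested, and PLG itself was listed at 0. Of the 6, 1 was lower and 1 higher, against 6.93% and 18.7% of all genes tested. ANXA2, annexin A2, which brings plasminogen and its tissue activator together on the cell surface, had 119.5 ± 2.43 FPKM in vector cells and 131.9 ± 1.64 in shYB1 cells (SD, n = 3 each, log2 difference 0.14, limma adjusted p = 0.00765). LRP1, the receptor that clears complexes of activators and their inhibitors, fell from 15.4 ± 0.36 to 13.4 ± 0.52 FPKM (SD, n = 3 each, log2 difference −0.20, limma adjusted p = 0.0114). With median-of-ratios size factors 2 genes of this list were lower, against 12% of all genes tested.

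Of 7 inhibitors of plasminogen activation 3 were tested. SERPINE2, which inhibits urokinase and thrombin, had a log2 difference of 0.02 (adjusted p = 0.727 from limma) and SERPINF2, the plasmin inhibitor, a difference of −0.19 (adjusted p = 0.273 from limma), and neither was called. CPB2 and A2M were listed at 0.

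The acute phase proteins, the class to which fibrinogen belongs in the liver, were lower in most of the genes measured. Of 20 genes 10 were tested, and limma called 7 lower and 0 higher, with 7 and 1 at an unadjusted p under 0.05. With median-of-ratios size factors 7 and 0 were called. The shares of all genes tested were 6.93% lower and 18.7% higher, or 12% and 11.4% with those size factors. The list's median log2 difference was −0.45. C3, the central complement component, fell from 47.5 ± 1.26 to 21.5 ± 0.23 FPKM (SD, n = 3 each, log2 difference −1.14, limma adjusted p = 4.8e-08). SAA1, serum amyloid A, fell from 16.4 ± 2.33 to 9.43 ± 0.67 FPKM (SD, n = 3 each, log2 difference −0.78, limma adjusted p = 0.000518), and it shares sequence with its near copy SAA2, so its value is uncertain. LBP, which carries bacterial lipopolysaccharide, fell from 18.8 ± 0.85 to 11.3 ± 0.26 FPKM (log2 difference −0.73), and CP, the copper protein ceruloplasmin, from 24.5 ± 0.75 to 15.3 ± 0.37 FPKM (log2 difference −0.67). SERPINA1, LCN2 and FTH1 were also called lower, and ITIH4, AGT and FTL were not called. The call of LCN2 was lost with no filter and without vector replicate 2 or 3. HP, HPX, ORM1, HAMP and ITIH3 were listed at 0, and CRP had a mean of 0.00338 FPKM, so the fall was read in a minority of the textbook list.

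Of 22 genes of IL-6 type signaling and of factors known at the fibrinogen promoters 18 were tested. Of these, 5 were lower and 3 higher, against 6.93% and 18.7% of all genes tested. With median-of-ratios size factors 6 were lower and 1 higher, against 12% and 11.4%. SOCS3, the feedback inhibitor of the pathway, fell from 66.5 ± 0.58 to 44.2 ± 1.68 FPKM (SD, n = 3 each, log2 difference −0.59, limma adjusted p = 4.36e-06). CEBPD, a C/EBP factor of the acute phase, fell from 769.8 ± 32.5 to 519.4 ± 38.9 FPKM (SD, n = 3 each, log2 difference −0.57, limma adjusted p = 9.86e-05), whereas CEBPA rose from 1.17 ± 0.11 to 1.81 ± 0.26 FPKM (log2 difference 0.59, limma adjusted p = 0.00606). IL6R, the receptor chain that binds IL-6, had 1.78 ± 0.045 and 1.36 ± 0.17 FPKM (log2 difference −0.37, limma adjusted p = 0.0269), and the call was lost in 6 of 14 alternatives (no filter, and every fit that left out 1 library other than shYB1 replicate 2, with log2 differences of −0.28 to −0.38), over which the adjusted p ran from 0.0126 to 0.0865. STAT3 and CEBPB were also lower, and IL6ST higher. The calls of CEBPB and IL6ST were kept in 9 and 11 of 15 alternatives. Each was lost in some fits that left out 1 library, shYB1 replicates 1 and 2 among them. IL6 itself was not called (0.11, adjusted p = 0.230 from limma), and HNF4A was under 1 FPKM.

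**Figure D4:**
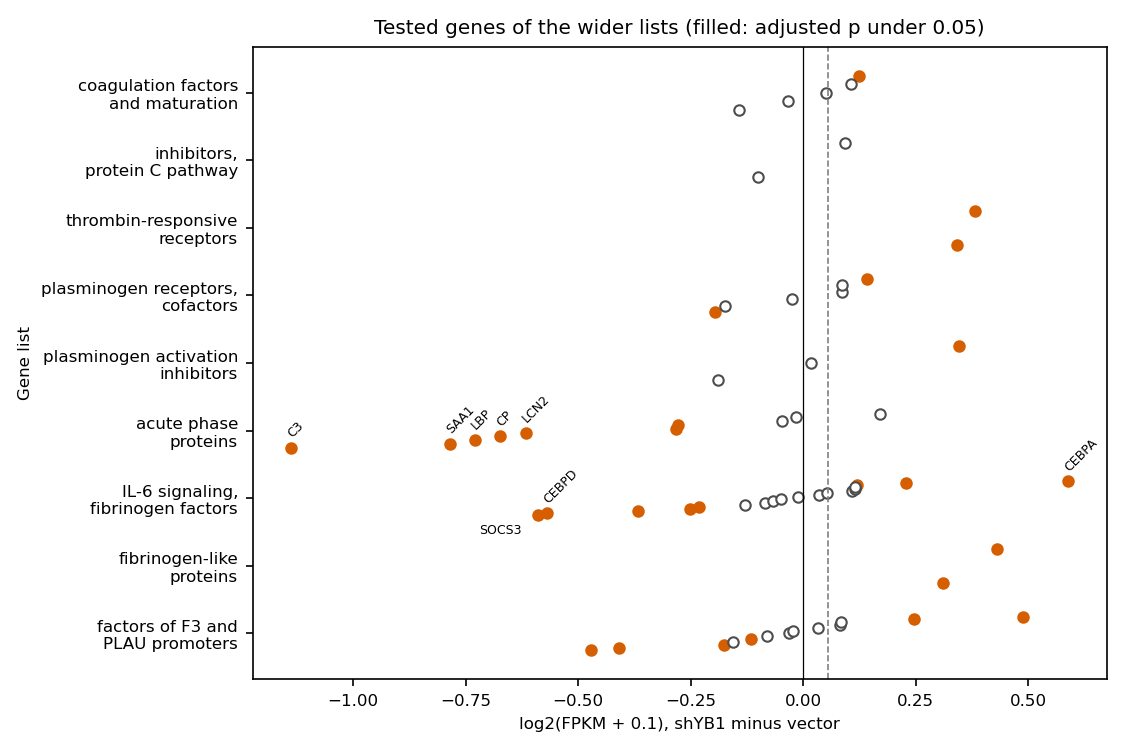
Difference in log2(FPKM + 0.1), shYB1 minus vector (horizontal axis), of the 61 tested genes in the 9 lists (vertical axis), with 1 point per gene. Filled points have an adjusted p under 0.05 from limma, the dashed line is the median of all genes tested, 0.055, and genes beyond 0.55 in either direction are named. The acute phase proteins lie mostly to the left, with a median of −0.45.

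Of 12 fibrinogen-like proteins, which share the globular fibrinogen domain, 2 were tested. Both were called higher, as were 18.7% of all genes tested. TNC, the matrix protein tenascin C, rose from 7.83 ± 0.088 to 10.6 ± 0.34 FPKM (SD, n = 3 each, log2 difference 0.43, limma adjusted p = 0.000188). FIBCD1, a membrane receptor for acetylated sugars, rose from 8.72 ± 0.53 to 10.8 ± 0.44 FPKM (SD, n = 3 each, log2 difference 0.31, limma adjusted p = 0.00363). FGL1 and ANGPT2 were among 6 listed at 0.

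All 13 factors known to act on the tissue factor and urokinase promoters were tested, and 4 were lower and 2 higher. With median-of-ratios size factors 6 were lower and 2 higher. The shares of all genes tested were 6.93% lower and 18.7% higher, or 12% and 11.4% with those size factors. The AP-1 members moved in different directions. FOSL1 rose from 78.8 ± 3.33 to 110.6 ± 3.62 FPKM (SD, n = 3 each, log2 difference 0.49, limma adjusted p = 2.86e-05). JUNB fell from 666 ± 17.3 to 480.2 ± 11.9 FPKM (SD, n = 3 each, log2 difference −0.47, limma adjusted p = 9.07e-06), and FOS from 411.3 ± 2.42 to 309.7 ± 2.60 FPKM (SD, n = 3 each, log2 difference −0.41, limma adjusted p = 7.74e-06). ETS2 was higher, at 9.88 ± 0.47 and 11.7 ± 0.64 FPKM (log2 difference 0.25, limma adjusted p = 0.0108). JUN and EGR1 were also lower, and the NF-kB subunits RELA and NFKB1 were not called. The call of EGR1 was kept in 9 of 15 alternatives. It was lost without replicate 1 or 2 of either group, among others.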

How the data were processed

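RNA of 3 vector and 3 shYB1 libraries of 786-O cells was sequenced. Per the labels, the submitters' processing notes name Trimmomatic, HISAT2, Cufflinks, HTSeq and DESeq and the build GRCh38, with no versions, and the authors deposited normalized FPKM for 20030 genes. FPKM hold no counts, so depth is unknown and counting intervals and floors are not given. FPKM totals were 282736 to 295887 per library. 0 columns of per-library values were left out.

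A pseudocount of 0.1 was added to the deposited FPKM before taking log2, and the 10439 genes whose mean over 6 libraries reached 1 FPKM were kept. The comparison of shYB1 with vector used limma 3.58.1 under R 4.3.3 (eBayes with trend and robust variance prior, two-sided, Benjamini-Hochberg over all genes tested, threshold 0.05). Tested on simulated data of this comparison over 10439 genes with 200 changed, it recovered 164 at a log2 change of 0.5 and 195 at 1. It made 9 false calls each, and 0 calls with none changed. The simulation used independent normal noise for each gene, changes in random directions and no shift in scaling. It does not give the rate of false calls in these data, where 25.7% of genes were called and the directions depended on scaling. Alternatives were other pseudocounts, filters, scalings and variance priors, the replicate block, the log2 ratio of mean FPKM, and each library left out in turn.

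The members and lists were chosen with earlier results of these data known. The genes named are the 9 members, YBX1, from each list the genes called (at most 4, by size of difference), and the 5 genes most like FGG. Results for some genes of the lists and 1 of the motifs are not reported here. Genes listed only as called, not called, low or at 0, the neighbours of the cluster and the markers were named beyond that rule, some of them after their values were seen. Coordinates are from GENCODE 29. Python 3.11.15, pandas 2.3.3, NumPy 2.4.6, SciPy 1.17.1 and matplotlib 3.10.9 were used.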

Additional observations from a re-analysis of the deposited data

How the results depend on the processing

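With median-of-ratios size factors 1253 of all genes tested were lower and 1192 higher in shYB1 cells, and with quantile normalization 1184 and 1267, against 723 and 1956 as deposited. Of the 9 genes, 2 were lower with a filter at 5 FPKM, which leaves out FGB and FGG, and 1 was higher with median-of-ratios size factors, with quantile normalization or without the variance trend, in each case F3 without PLAU. With 1 library left out, 513 to 606 of all genes were lower and 1323 to 1944 higher, 14 to 17 lower and 8 to 13 higher in the lists, 4 lower in each fit and 1 to 2 higher among the 9 genes, and YBX1 was at −1.16 to −1.13. With the replicate block 760 of all genes were lower and 2074 higher, and 4 and 2 of the 9 genes. Deviations from the group means correlated at −0.169 to −0.00820 for the 3 pairs with the same number and −0.0507 to 0.113 for the 6 with different numbers. So few pairs cannot show whether libraries of the same number were handled together. Among alternative values of single genes, 402 kept their side of the threshold or, for the 9 genes, which were compared by size only, moved by less than the replicate SD, 16 lost the call (8 of VKORC1, 6 of IL6R and 2 of F2R), 4 moved further, and 0 turned direction. Apart from these, the call of PLAU was lost in 7 of 15 alternatives. The 4 were FGG (−1.09) and FGB (−0.67) with a pseudocount of 1, and TFPI2 with median-of-ratios size factors (−0.41) and quantile normalization (−0.32). FGA, FGB and PLAT lie near or under 1 FPKM, where unknown depth limits precision most.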
